A study of Mus musculus with 2 samples.

Results

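Nefl, Nefm, Nefh, Ina, Prph, Vim and Nes encode intermediate filament proteins of nerve tissue. They were taken as a named set of 7 genes, by symbol, from 55536 annotated gene rows, and all 7 had reads in both libraries. Total RNA came from the left cerebral cortex of 2 males, 2 months old, of the strain B6CASTF1/J, an F1 hybrid of C57BL/6J and CAST/EiJ, with 1 library per animal from 300 ng of RNA and with synthetic ERCC spike-in RNAs added. The 2 animals form 1 group with no treatment, so there is no condition to compare: the values describe levels, transcript forms and the difference between the animals. The reads had been assigned to the C57BL/6J build mm10, and the effect of CAST/EiJ sequence differences on the counts was not tested.

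Intermediate filaments are built from rod-shaped proteins that pair, assemble end to end and bundle into rope-like fibres. In brain axons, the light, medium and heavy neurofilament subunits (Nefl, Nefm and Nefh) assemble with alpha-internexin (Ina), and the long tails of the medium and heavy subunits are heavily phosphorylated and project from the filament. Peripherin (Prph) is a filament protein typical of peripheral, cranial and spinal motor neurons, vimentin (Vim) of vessel, meningeal and immature glial cells, and nestin (Nes) of neural stem cells and growing vessels.

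The genes share a family feature. Each protein carries a conserved stretch at the end of its rod, and its 30 coding bases are shown for all 7 genes because they show how far the members share it. They were read from the GENCODE M21 transcripts on mm10, 5′ to 3′ on the coding strand, and capitals mark bases identical to Nefl. Each stretch was located by a fixed amino acid pattern in the protein, so part of the likeness follows from the search.
Nefl, chr14:68086091-68086508, + strand: GCTTACAGAAAACTCTTGGAAGGCGAAGAG
Nefm, chr14:68121363-68122828, - strand: GCgTACAGgAAACTCcTaGAgGGgGAAGAG
Nefh, chr11:4941394-4943858, - strand: GCTTACAGAAAgCTCcTGGAAGGCGAAGAG
Ina, chr19:47021950-47023356, + strand: GCTTACAGgAAgCTCcTGGAAGGtGAAGAG
Prph, chr15:99057444-99057473, + strand: aCcTACAGgAAgCTacTGGAAGGgGAgGAG
Vim, chr2:13580204-13580233, + strand: aCcTACAGgAAgCTgcTGGAAGGCGAgGAG
Nes, chr3:87973109-87974823, + strand: aCaTACAGgActCTgcTGGAgGctGAgaAc
Nefh shared 28 of these 30 bases with Nefl, Ina 26, Nefm 24, Vim 23, Prph 22 and Nes 17, while Vim and Prph shared 28 with each other. An intron interrupts the stretch after base 8 in Nefl, Nefm, Nefh, Ina and Nes, and no intron interrupts it in Prph or Vim. The first transcripts of Ina, Nefm, Nefl, Nefh and Nes have 3 or 4 exons, and those of Prph and Vim have 9.

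The neurofilament genes and Ina were the abundant members. Nefl stood at 182.85 TPM (the share of all transcripts, a level per length) in replicate 1 and 169.32 in replicate 2, or 176 ± 9.57 (SD, n = 2 here and below). These levels are from the gene tables, which the authors made from a transcriptome alignment. Ina stood at 104.27 and 96.92 TPM, or 101 ± 5.20, and Nefm at 80.01 and 75.83, or 77.9 ± 2.96. These 3 genes ranked 385, 922 and 1315 by mean TPM among the 12921 protein-coding genes that reached 1 TPM in both libraries. Nefh was far lower than its partners, at 22.85 and 21.17 TPM (22.0 ± 1.19), rank 5151. Behind these levels lie 13061 and 11871 expected counts (read numbers that the authors estimated) for Nefl, 7130 and 6505 for Ina, 5649 and 5254 for Nefm, and 1938 and 1762 for Nefh. The deposited posterior mean TPM of Nefl was 177.26 and 164.06, with credibility intervals of 174 to 180 and 161 to 167. The TPM of Nefl, Ina and Nefm lay above their credibility intervals in both libraries, and that of Nefh lay inside.

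Among the other 3 members, Vim was the highest. Vim stood at 27.6 and 24.52 TPM (26.1 ± 2.18; 811 and 760 counts), close to Nefh. Nes, at 2.42 and 2.51 TPM (2.47 ± 0.0636; 251 and 288 counts), was near the bottom of the genes detected, with 8.85% of them below it. Prph was the only member under 1 TPM in both libraries, at 0.69 and 0.43 TPM from 25 and 13 counts. The deposited credibility interval around its posterior mean TPM (0.96 and 0.73) ran from 0.524 to 1.46 in replicate 1 and from 0.285 to 1.28 in replicate 2, so its level is known only roughly. In bulk tissue, fewer cells that express a gene and less RNA per cell cannot be told apart.

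**Figure D1:**
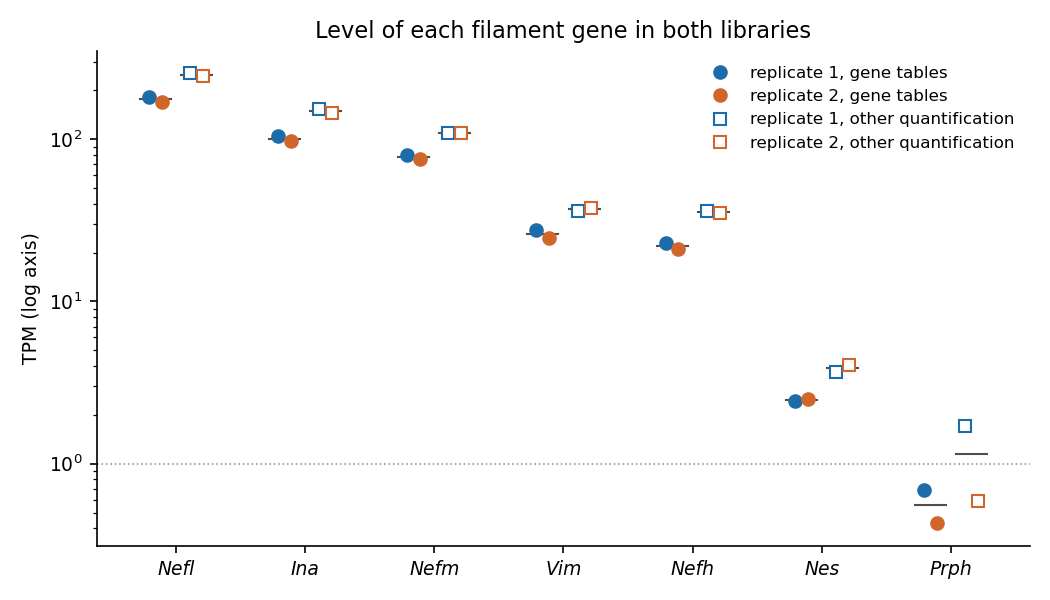
TPM on a log axis for each of the 7 genes, ordered by mean level. Filled circles are the gene tables and open squares the other quantification, each coloured by replicate, bars are means of the 2 libraries, and the dotted line is 1 TPM. Nefl, Ina and Nefm lead in every library, Vim and Nefh lie side by side, and Prph lies below the line except in replicate 1 of the other quantification (1.71 TPM).

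The order of the 7 genes was Nefl, Ina, Nefm, Vim, Nefh, Nes and Prph, and neighbours kept this order in both libraries and in both quantifications, though 1 pair by less than its spread. The other quantification is a second set of deposited tables, made directly from the reads. Nefl exceeded Ina 1.75 ± 0.00468-fold, and 1.67 ± 0.00166-fold in the other quantification. Ina exceeded Nefm 1.29 ± 0.0177-fold, Nefm exceeded Vim 3.00 ± 0.137-fold, and Nefh exceeded Nes 8.94 ± 0.713-fold. Nes exceeded Prph 3.51-fold in replicate 1 and 5.84-fold in replicate 2, or 2.51 and 3.44-fold by posterior mean TPM. The exception is Vim and Nefh: Vim was 1.21 and 1.16-fold above Nefh in the gene tables, but 1.00 and 1.07-fold in the other quantification, so these neighbours were not separated.

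Within the neuronal filament set, the proportions were nearly the same in the 2 animals. Summed over Nefl, Ina, Nefm and Nefh, the level was 389.98 TPM in replicate 1 and 363.24 in replicate 2. Nefl made 46.9% and 46.6% of that sum, Ina 26.7% and 26.7%, Nefm 20.5% and 20.9%, and Nefh 5.86% and 5.83%. Nefl thus stood 2.29 and 2.23-fold above Nefm and 8.00 and 8.00-fold above Nefh. In the other quantification the sum was higher, at 554 and 535 TPM, and Nefl was 7.04 and 6.93-fold above Nefh, so the size of this last ratio depends on the quantification by more than it differs between the animals. These are ratios of RNA, and the proteins were not measured.

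**Figure D2:**
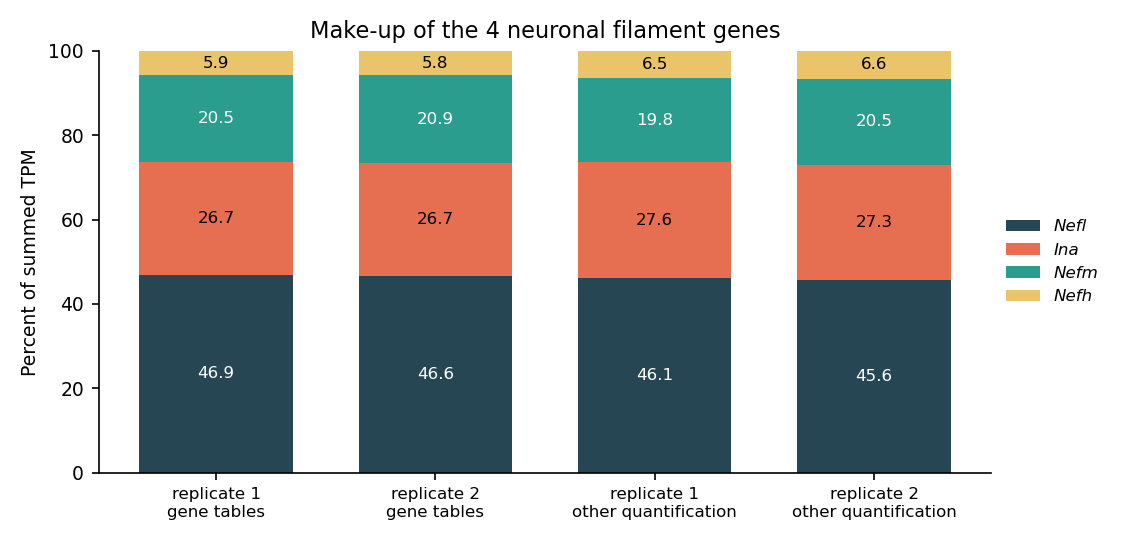
Percent of the summed TPM of Nefl, Ina, Nefm and Nefh taken by each gene, for replicate 1 and replicate 2 in the gene tables (left) and in the other quantification (right). Nefl takes 45.6% to 46.9% and Nefh 5.83% to 6.58% across the 4 columns.

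The heavy subunit has by far the most repeats of the tail phosphorylation motif, a run of lysine, serine and proline codons. Nefh has 51 such runs in 1090 codons, Nes 5 in 1864, Nefm 4 in 848, and Nefl, Ina, Prph and Vim none. After the rod end come 682 codons in Nefh, 441 in Nefm, 145 in Nefl and 97 in Ina. The Nefh stretch with most runs, chr11:4940905-4941054 on the - strand of mm10, is shown with these codons in capitals because these repeats set the heavy subunit apart from its partners.
Nefh: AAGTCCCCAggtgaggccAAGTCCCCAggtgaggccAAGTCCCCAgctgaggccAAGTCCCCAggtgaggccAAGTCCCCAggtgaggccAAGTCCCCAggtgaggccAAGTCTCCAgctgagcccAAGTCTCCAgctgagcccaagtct
The 150 bases hold 8 runs. No 31-base word of Nefh occurs in a transcript of another gene.

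Nefl and Nefm lie together on chromosome 14, and their annotated models overlap. Nefl (ENSMUSG00000022055.7, chr14:68083863-68089095) is on the + strand and Nefm (ENSMUSG00000022054.11, chr14:68082590-68124846) on the - strand. The common Nefm form, Nefm-201, has 3 exons and 848 codons and lies clear of Nefl. Nefm-202 leaves out the tail exon, adds an exon of 67 bases and ends in an exon that covers 1108 bases of Nefl exons on the opposite strand. It encodes 470 codons and lacks the whole coding part of the tail exon of Nefm-201. Its added coding exon, which overlaps no part of Nefl, is shown in capitals between 10 flanking bases on each side, because reads across it identify this form.
Nefm-202, chr14:68115950-68116016, - strand: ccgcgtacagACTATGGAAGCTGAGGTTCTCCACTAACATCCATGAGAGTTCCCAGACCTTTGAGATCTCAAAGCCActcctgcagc
Nefm-202 took 148 and 122 expected counts against 5501 and 5132 for Nefm-201. That is 2.37% and 2.11% of the gene's TPM, and 2.43% and 2.16% in the other quantification. Of its 31-base words, 30.3% are the reverse complement of a word in another gene, as are 32.2% of those of Nefl and 13.3% of those of Ina, whose start overlaps 456 bases of the gene Nt5c2 on the opposite strand. Whether the counting used strand is not stated. The deposited posterior SD of the gene count was 0 for all 7 members in both libraries. This is the value given where no read is divided between genes, so the gene tables list no read of these stretches as divided.

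**Figure D3:**
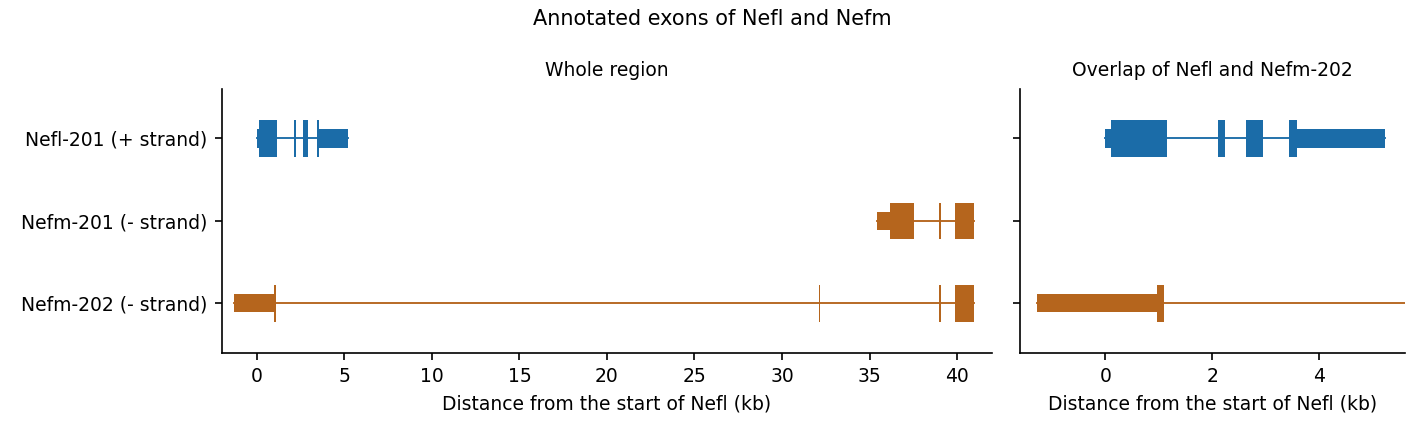
Annotated exons of Nefl-201, Nefm-201 and Nefm-202, as distance in kb from the start of Nefl, for the whole region (left) and the overlap (right). Tall boxes are coding sequence, low boxes untranslated sequence and lines introns. Only Nefm-202 reaches Nefl, and its last exon covers 1108 bases of it on the other strand.

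The 7 genes have 18 annotated forms, and 3 genes (Nefl, Nefh and Ina) have 1 form each. The leading form was the same in both quantifications for 5 members. It differed for Vim in both libraries and for Prph in replicate 2, while in replicate 1 Prph-201 led in both. Nefm-201 held 97.8 ± 0.187% of its gene's TPM, and 97.7 ± 0.189% in the other quantification.

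For Vim the division between forms was unsettled. Vim-206, which skips an exon of 86 bases, was listed at 39.0% and 51.8% of the gene's TPM. Vim-201, with all 9 exons, was at 24.6% and 20.8%, and the retained-intron form Vim-203 at 35.5% and 24.6%. Vim-203 is only 535 bases long, and it took 93.0 and 56.1 of the gene's 811 and 760 counts. TPM is a level per length, so the share of this short form is larger in TPM than in counts. In the other quantification Vim-201 led with 61.1% and 48.9%, and Vim-206 had 15.1% and 27.4%. The annotated starts of these 2 forms also differ, at position 13573952 for Vim-201 and 13574281 for Vim-206. The skipped exon, chr2:13581613-13581698 on the + strand, is shown in capitals with 10 flanking bases on each side, because its skipping is a difference between Vim-206 and Vim-201.
Vim-201: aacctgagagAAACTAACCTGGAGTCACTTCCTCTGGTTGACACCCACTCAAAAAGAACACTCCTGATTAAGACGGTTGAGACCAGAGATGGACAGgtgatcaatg
Only 28 of 1747 words of Vim-206 occur in no other form of these genes, against 273 of 2163 for Vim-201. The posterior SD was 41.2 on 393 counts for Vim-206 and 43.8 on 310 for Vim-201 in replicate 1. The division also set the length used for Vim, at 1350 bases in replicate 1 and 1451 in replicate 2, so the log2 ratio of the animals' TPM was 0.17 while that of their counts was 0.06.

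Nes was led by Nes-201 in every library, but its second coding form has almost no sequence to set it apart. Nes-201 was at 50.8% and 62.5% of the gene's TPM, Nes-203 at 23.6% and 24.7%, and the retained-intron form Nes-202 at 25.6% and 12.7%. Nes-202 is 1311 bases long, against 6126 for Nes-201, and took only 16.3 and 8.17 of the gene's 251 and 288 counts. Nes-203 fell to 5.30% and 0.523% in the other quantification, where Nes-201 had 63.0% and 77.0%. Within the coding sequence, Nes-203 differs by the removal of 132 bases from the last exon, chr3:87976581-87976712 on the + strand, shown in capitals with 10 flanking bases because the flanks repeat its own ends.
Nes-201: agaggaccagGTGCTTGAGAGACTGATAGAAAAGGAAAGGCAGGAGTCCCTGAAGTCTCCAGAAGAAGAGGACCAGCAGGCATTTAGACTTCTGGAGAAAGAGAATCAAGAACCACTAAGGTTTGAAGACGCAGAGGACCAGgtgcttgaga
The last 10 capitals equal the 10 bases before the stretch, and the first 10 equal those after it. Nes-203 has 0 words of its own among 5928, so no word of this length identifies it. Its posterior SD was 31.9 on 73.1 counts in replicate 1.

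Prph had too few reads to rank its forms. All 25 counts of replicate 1 and 12.5 of 13 in replicate 2 went to Prph-201, but the other quantification gave Prph-201 59.1% of the gene's TPM in replicate 1 and 3.89% in replicate 2, where Prph-202 had 96.1%. Prph-202 has 0 words of its own among 1833, so no word of this length identifies it. It retains an intron of 96 bases, a multiple of 3, chr15:99056937-99057032 on the + strand. The intron is shown in capitals with 10 flanking bases because it separates Prph-202 from Prph-201.
Prph-202: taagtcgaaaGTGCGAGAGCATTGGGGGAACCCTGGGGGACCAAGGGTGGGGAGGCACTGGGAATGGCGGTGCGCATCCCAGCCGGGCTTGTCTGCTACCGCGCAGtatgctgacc

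**Figure D4:**
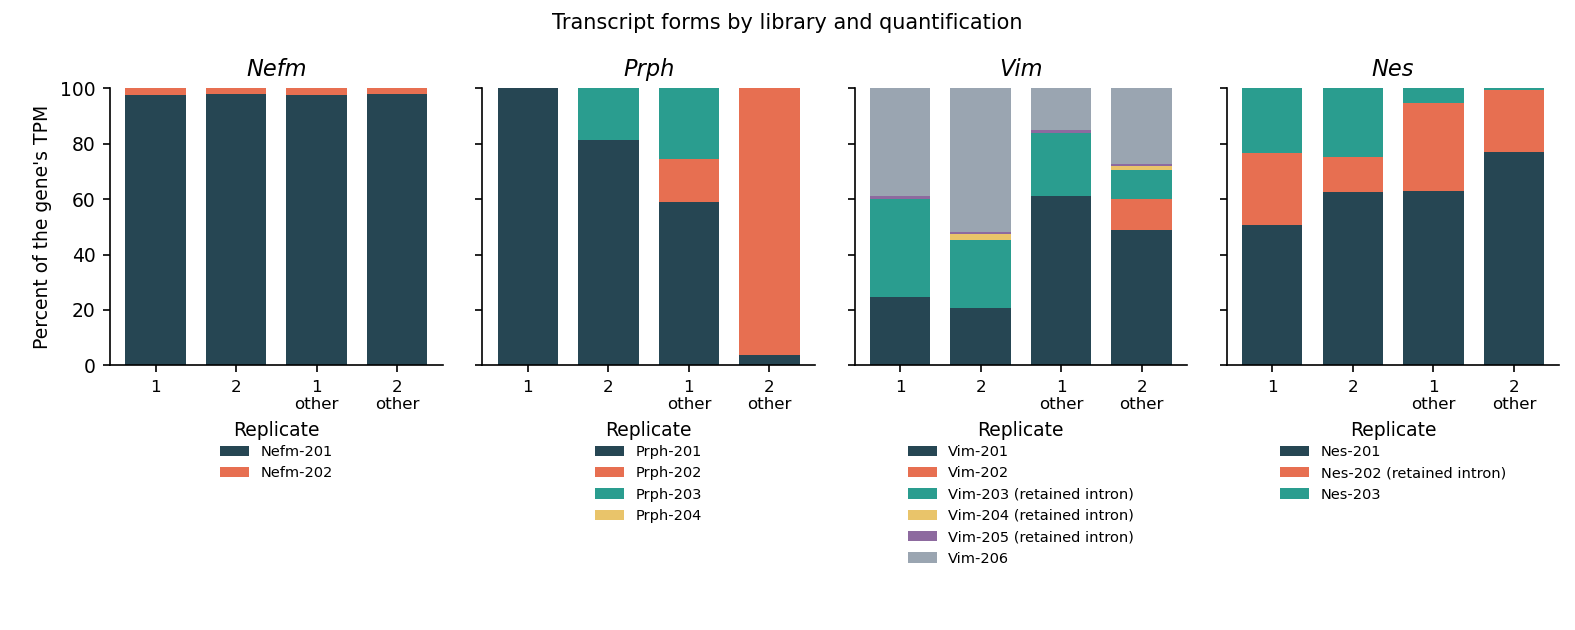
Percent of the gene's TPM by annotated form for Nefm, Prph, Vim and Nes in replicate 1 and replicate 2, from the tables made from the alignment (left pair) and the other quantification (right pair). Nefm-201 holds over 97% in all 4 columns, while the leading form changes between the quantifications for Vim in both replicates and for Prph in replicate 2.

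No member differed 2-fold between the animals. The ratio is replicate 1 over replicate 2, from counts scaled by TMM (edgeR's correction for library composition), with a 95% interval that covers counting error only. A mean count of 10 or more was required, and of the 18490 genes that met it 1.80% passed 2-fold. Prph came closest, at a log2 ratio of 0.82, but with 25 and 13 counts its interval ran from -0.11 to 2.00. It was 1.02 (interval 0.19 to 2.11) in the other quantification, from 32 and 15 counts.

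The 4 neuronal filament genes were each slightly higher in replicate 1. The log2 ratio was 0.11 for Nefl (interval 0.07 to 0.14), 0.10 for Ina (0.05 to 0.15), 0.11 for Nefh (0.01 to 0.20) and 0.07 for Nefm (0.02 to 0.13), folds of 1.05 to 1.08. These 4 of the 7 members were higher in replicate 1 beyond counting error, against 11.6% of all genes tested and 23.0% of the 5754 genes whose mean count reached 1000, a class that includes all 4. In the other quantification the interval for Nefm reached 0 (0.05, interval -0.00 to 0.10), so that 3 of these 4 stayed beyond counting error there. Vim (0.06, interval -0.08 to 0.21) and Nes (-0.23, interval -0.48 to 0.02) were not separated from 0 with TMM. The ratio rests on 1 animal each, so it has no p-value and no check by replicates. The median absolute log2 ratio was 0.06 over the genes whose mean count reached 1000, and 0.11 over all genes tested. Nefm was near the first value, and Nefl, Ina and Nefh lay above it and near the second. How many genes shifted by 0.10 or more was not counted. Scaling by the spike-ins instead turned the direction of all 4 (Nefl -0.21, Ina -0.22, Nefh -0.21, Nefm -0.25), and it moved the median of all genes to -0.32, so the 4 then lay above that median by about as much as with TMM. With that scaling the intervals of Vim (-0.26, interval -0.40 to -0.11) and Nes (-0.54, interval -0.80 to -0.30) lay below 0, and both included the median of all genes.

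**Figure D5:**
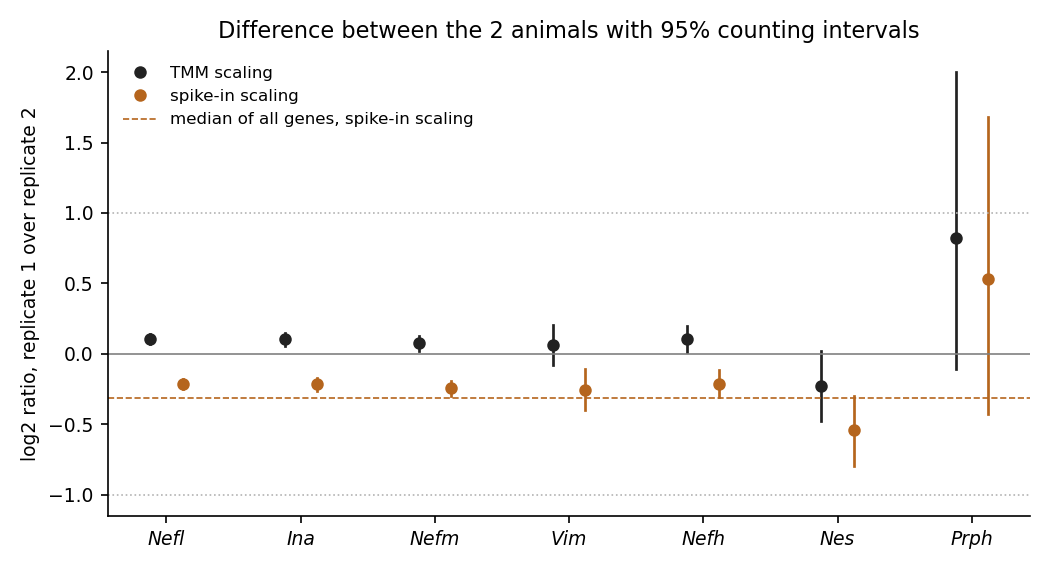
Log2 ratio of replicate 1 over replicate 2 for each gene with its 95% counting interval, scaled by TMM (black) and by the spike-ins (brown). The dashed line is the median of all genes with spike-in scaling, -0.32, and dotted lines mark a 2-fold difference. Nefl, Ina, Nefm and Nefh lie just above 0 with TMM and just above the dashed line with spike-ins.

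Expected counts summed to 33007629 in the library of replicate 1 and to 32142918 in that of replicate 2. Markers of other regions and cell types that the dissection could hold also differed between the animals, and their part in these ratios was not tested. All 8 striatal markers were higher in replicate 1 beyond counting error (summed level 312 and 172 TPM, median log2 ratio 1.01), and so were all 6 oligodendrocyte markers (826 and 671 TPM, median 0.26). Over all genes tested 11.6% were higher in this way, and 23.0% of those whose mean count reached 1000. The share of all genes that were lower was not computed. Of 5 neuron markers 3 were higher and none lower (2802 and 2750 TPM, median 0.02), with the tubulin gene Tubb3 at 0.18. Of 5 deep layer projection neuron markers 2 were higher and none lower (118 and 108 TPM, median 0.02), and of 5 astrocyte markers 2 were higher and none lower (337 and 329 TPM, median 0.04). The 2 deep layer genes were Bcl11b (0.26) and Crym (0.23), while Fezf2, Pou3f1 and Ldb2 were at 0.02, 0.01 and 0.00. With spike-in scaling the medians of these 5 lists were 0.70, -0.06, -0.30, -0.30 and -0.28, so only the striatal one stayed above 0.

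Markers of the cell types known for Vim, Nes and Prph were present at unequal levels. Endothelial markers summed to 59.0 and 57.2 TPM and mural cell markers to 64.8 and 65.4, with median log2 ratios of -0.08 and -0.07. Among these 10 genes 1 was higher and 1 lower in replicate 1 beyond counting error. Over all genes tested the share higher was 11.6%, and the share lower was not computed. Meningeal fibroblast markers summed to 75.8 and 80.0 TPM (median 0.06, 1 of 5 higher and 1 lower), of which Igf2 made 47.94 and 52.96 TPM. Microglia markers summed to 116 and 110 TPM (median 0.05, none of 5 beyond counting error). Neural progenitor and neuroblast markers were low, at 22.8 and 22.3 TPM over 7 genes, of which 3 reached 1 TPM in both libraries. Of the 5 measured, 3 were higher and 1 lower in replicate 1 (median 0.14). Ependyma and choroid plexus markers summed to 12.2 and 94.0 TPM, of which Ttr made 8.58 and 89.16 TPM. Of the 3 measured, 2 were lower in replicate 1 (median -0.28), and Tmem212 had 0 counts. A count of 0 allows a level of up to 0.0913 CPM in replicate 1 and 0.0937 CPM in replicate 2 (3 counts). Of 7 markers of hindbrain, monoamine and motor neurons, none reached 1 TPM in both libraries. Of the 4 of them measured, 1 was higher in replicate 1 (median 0.68).

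Among other intermediate filament genes in the gene tables, Gfap stood well above Vim, and Iffo1 and Lmna stood close to Vim. Gfap, the astrocyte filament gene, stood at 63.21 and 53.11 TPM and was 2.29 and 2.17-fold above Vim. Iffo1 (27.6 ± 1.33 TPM) and the nuclear lamin gene Lmna (25.4 ± 1.12) followed. In the other quantification Lmna stood higher than Vim, at 53.5 and 53.1 TPM against 36.3 and 37.7. Iffo1 was there at 35.5 and 55.7 TPM, so its closeness to Vim held in replicate 1 only. Of 17 genes, 10 reached 1 TPM in both libraries, among them Krt222 at 14.4 ± 0.403 TPM and the synemin gene Synm at 7.19 ± 0.177. The epithelial keratin genes Krt5, Krt7, Krt8, Krt18 and Krt19 had at most 7 counts in a library, while Krt10 had 72 and 55 (5.72 and 4.48 TPM). Of the 12 that met the count minimum, Gfap was higher in replicate 1 beyond counting error (log2 ratio 0.25, interval 0.18 to 0.32) and Lmna lower (-0.13, interval -0.25 to -0.02). Over all genes tested the share higher was 11.6%, and the share lower was not computed. The median log2 ratio of these 12 was 0.03, against 0.10 for the 7 members and 0.00 for all genes tested. With spike-in scaling these medians were -0.27, -0.22 and -0.32.

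Genes that move, link, modify and degrade neurofilaments spanned a wide range of levels. Of the motors, the neuronal kinesin gene Kif5a, whose product carries neurofilaments, stood at 464 ± 17.4 TPM, the kinesin light chain gene Klc1 at 365 ± 1.80 and Kif5c at 258 ± 6.19. The plakin linker genes Dst (112 ± 7.18), Macf1 (102 ± 7.38) and Plec (79.4 ± 7.33) were lower in replicate 1, with Plec at a log2 ratio of -0.21 (interval -0.24 to -0.17). Of the 10 genes of this list 3 were higher in replicate 1 beyond counting error and 4 lower (median 0.01, and -0.31 with spike-in scaling). Over all genes tested 11.6% were higher in this way, and 23.0% of those whose mean count reached 1000. The share of all genes that were lower was not computed. Of 11 kinase and phosphatase genes 4 were higher and 1 lower (median 0.03, and -0.29 with spike-in scaling). Mapk10 led at 236 ± 0.849 TPM, and Cdk5r2, an activator of the tail kinase Cdk5, stood at 167 ± 7.88 TPM. Of 8 genes for filament turnover and regulation of Nefl mRNA 1 was higher and 1 lower (median 0.03, and -0.29 with spike-in scaling). The ubiquitin hydrolase gene Uchl1 led at 407 ± 20.6 TPM, followed by the ubiquitin ligase gene Trim2 (116 ± 10.8) and the RNA-binding protein gene Tardbp (91.6 ± 6.17).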

How the data were processed

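Members and gene lists were chosen with earlier results of these data known. Per the file headers and the descriptions beside them, the authors estimated the deposited expected counts, TPM and FPKM of the gene tables and of 1 transcript table per library from a transcriptome alignment on mm10 with GENCODE M21, and the estimated counts and TPM of the other transcript table directly from 1 sequence file. The deposited credibility bounds of TPM are given as a signal of uncertainty. Which programs were used is not given in the sources used here. For the ratio of the animals, expected counts were rounded, genes were kept at a mean count of 10 or more, and log2 CPM was taken with TMM and a prior count of 2 (edgeR 4.0.16, R 4.3.3), with exact conditional binomial (Clopper-Pearson) intervals. These steps were tested on simulated data. The sources used here name no molecular identifiers, and PCR copies are not independent molecules, so intervals and limits for counts of 0 cover counting error only. The 96 spike-in rows, with 0.428% of counts in replicate 1 and 0.345% in replicate 2, served only for the spike-in scaling. The 26249 rows naming no gene, with 1.78e-05% and 2.48e-05% of counts, were left out. The difference between the libraries exceeded sampling noise (chi-square over degrees of freedom 6.42), and they were kept apart. Separate animals are taken from the labels, which number the males and the biological replicates separately but give both samples the same donor record. If that record is 1 animal, the differences are between libraries of 1 donor. Gene models, words of 31 bases and sequences came from GENCODE M21, read in Python 3.11.15. Named genes were all members, the 3 highest and the most different (mean count 100 or more) of each of the 4 lists of related genes, and the nearest gene in level. Some genes that this rule names are not reported here. Others, such as Dst, Macf1, Krt222, Synm, the keratins and the markers named, were chosen after their values were seen. Alternatives were spike-in scaling, size factors from DESeq2 1.42.0, other count minimums, prior count and pseudocounts, FPKM, posterior mean TPM, the other quantification and each library alone.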

Additional observations from a re-analysis of the deposited data

How the results depend on the processing

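The 6 members at 1 TPM or more were 6 in the other quantification and in each library alone, and 5 at a threshold of 5 TPM. No member passed 2-fold under 7 of the 8 alternatives for the ratio (a minimum of 100 counts drops Prph), and 1 (Prph) did in the other quantification. The ratio of Nefl to Nefh was 6.99 in the other quantification and 8.00 with posterior mean TPM, a move larger only than its SD of 0.00288, and that of Nefl to Ina was 1.67 in the other quantification. The ratios of Nefl to Nefm and of Vim to Nes moved by less than their SD under each alternative run. The leading forms in the tables made from the alignment had other shares in the other quantification, at 31.5% for Prph-201, 21.2% for Vim-206 and 70.0% for Nes-201. The causes were not tested. With spike-in scaling the log2 ratios were -0.21 for Nefl, -0.25 for Nefm, -0.21 for Nefh and -0.22 for Ina, below 0, since that scaling moves all genes. TPM itself depends on what else is counted: rescaled to nuclear protein-coding genes, Nefl was at 382 and Nefh at 47.8 TPM, and in the other quantification at 250 and 35.7. No paired analysis was possible because both libraries belong to 1 group. Counts of 25 and 13 limit Prph.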

Other observations

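Nefh had a lower count in the tables made from the alignment, relative to the other quantification, than most genes. It had 1938 and 1762 expected counts there, against 2260 and 2154 in the other quantification, a quotient of 0.838 over both libraries. The median quotient of 5625 protein-coding genes whose mean count reached 1000 was 0.925, and 1.90% of them lay below Nefh. The quotient was 0.971 for Nefl, 0.979 for Nefm and 0.930 for Ina. The part of the tail repeats in this was not tested.

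The annotated start of Vim-201, at position 13573952 of chromosome 2, lies 359 bases upstream of the RefSeq start on the same build, and that of Vim-206 lies 30 bases upstream. The form with the nearer start was listed higher in the tables made from the alignment and lower in the other quantification. The part of the start in the division of reads was not tested.

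The protein-coding genes nearest to the members in level, by Euclidean distance of log2(TPM + 1) over the 2 libraries, were Mdh2 for Nefl (181.89 and 170.58 TPM), Epb41l3 for Ina (103.9 and 96.96), Sel1l for Nefm (80.09 and 75.81), Nadk for Vim (27.73 and 24.7), Arl16 for Nefh (22.86 and 21.18), Cstad for Nes (2.41 and 2.53) and 4930404N11Rik for Prph (0.69 and 0.44). With 2 libraries this is a likeness in level only.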
